A study of Mus musculus with 22 samples.

Results

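Reduced representation bisulfite sequencing (RRBS) measured DNA methylation in 22 wild type C57BL/6 forebrains collected at embryonic day 10.5, 6 from saline-exposed embryos (Ctrl) and 16 from embryos exposed to ethanol in utero before implantation (EtOH-exposed). Compared here were 4 EtOH-exposed forebrains with strongly lowered methylation (EtOH-exposed 4, 5, 6 and 14, called low) and 9 EtOH-exposed forebrains whose levels resembled the controls (EtOH-exposed 1, 3, 7, 10, 11, 12, 13, 15 and 16, called control-like). The other 3 EtOH-exposed forebrains (2, 8 and 9, called intermediate) and the 6 Ctrl forebrains were placed beside them. The unit was the 100 bp tile on chromosomes 1 to 19 with at least 2 CpGs covered by at least 10 reads on a strand. Of 403227 tiles with a value in any sample, 125224 were measured in at least 3 low and 6 control-like forebrains, and 78576 in all 13.

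The low and control-like samples were selected on the methylation measured in these libraries. Over the 1144 most variable tiles (the top 1% of 114430), on which they separate, the mean level was 36.6, 33.7, 33.9 and 39.6% in EtOH-exposed 4, 5, 6 and 14. The nearest samples outside were the intermediate EtOH-exposed 8, at 48.0%, EtOH-exposed 2, at 48.9%, and EtOH-exposed 9, at 53.6%. The control-like samples lay at 57.7 to 74.2%, with EtOH-exposed 11 as the lowest, and the Ctrl samples at 62.6 to 73.0%. Since these values chose the samples, every methylation difference between them is given as a description, without a test. Only the read coverage was tested. It was not itself the value that chose the samples, but it comes from the same reads as the levels. Its p-values are therefore not independent of the choice. The labels do not give the litter or sex of an embryo, and embryos of one litter would not be independent in these tests. The sex chromosomes split the libraries into 2 sets of 11, one with 0.133 to 0.253% of positions on chromosome Y and 0.972 to 1.44% of calls on chromosome X, as in males, and one with 0.0324 to 0.0575% and 1.52 to 2.69%, as in females. The set with more of chromosome Y held 3 of the 4 low samples (EtOH-exposed 4, 5 and 6), all 3 intermediate samples and 3 of the 6 Ctrl samples, but 2 of the 9 control-like samples (EtOH-exposed 3 and 7). The subsets thus differ in the apparent sex of their embryos. Within the set with more of chromosome Y, the low minus control-like difference was -12.8 points at tiles of 20 to 80% in Ctrl and -3.55 at tiles of 90 to 100%. Within the other set, in which EtOH-exposed 14 was the only low sample, it was -9.58 and -3.27 points.

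DNA methylation at CpGs is placed by de novo methyltransferases after implantation and copied at each cell division by a maintenance methyltransferase. Most CpG-dense promoters stay free of it, gene bodies and intergenic DNA carry high levels, and imprinting control regions carry it on the allele of only one parent from the gamete onward. In this assay MspI cuts DNA at CCGG sites, so each read starts at a CpG, and a fragment is read as methylated or unmethylated after bisulfite conversion of its unmethylated cytosines. Each forebrain is a mixture of cells, so a lower level in every cell and a share of cells without methylation cannot be told apart.

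The sequences below, from GRCm38 and with the CpGs in capitals, show a tile of a gene body and a tile of an imprinted gene that were much lower in the low forebrains, a tile that was not, and 2 that were higher. Rfx8 encodes a member of the regulatory factor X family, and its tile in an intron (chr1:39714101-39714200) lies on an MspI fragment of 113 bp. The tile of Grb10, an imprinted adaptor protein gene that restrains growth, lies in an intron 1820 bp from the nearest start site (chr11:12026101-12026200). Gpr158 encodes an orphan G protein-coupled receptor, and its tile is intronic (chr2:21585301-21585400). The tile in an intron of Maml2, a Notch coactivator gene, consists of copies of a 36 bp unit (chr9:13534301-13534400). The intergenic tile chr4:10137701-10137800 repeats with a period of 41 bp, at which 93.2% of its bases were equal to the base one period further on.
Rfx8, lowered: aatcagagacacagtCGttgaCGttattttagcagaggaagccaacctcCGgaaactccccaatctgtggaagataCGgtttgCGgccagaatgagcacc
Grb10, lowered: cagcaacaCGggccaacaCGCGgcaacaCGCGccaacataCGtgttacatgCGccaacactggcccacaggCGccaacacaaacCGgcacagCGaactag
Gpr158, not lowered: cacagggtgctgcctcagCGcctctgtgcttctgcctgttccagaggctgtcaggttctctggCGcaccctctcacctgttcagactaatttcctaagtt
Maml2, raised: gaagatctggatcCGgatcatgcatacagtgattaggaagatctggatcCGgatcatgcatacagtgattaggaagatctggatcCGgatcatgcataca
Intergenic, raised: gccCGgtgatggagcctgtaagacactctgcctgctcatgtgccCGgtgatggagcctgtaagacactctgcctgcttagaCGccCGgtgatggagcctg

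On average, methylation was lower in the low forebrains at tiles with an intermediate or high level, and most of all at intermediate levels. Over the 12128 tiles at 20 to 80% in Ctrl, the mean level was 44.8% in the low and 56.5% in the control-like samples, a difference of -11.7 percentage points (SD 1.35 over the 4 low samples). Taken singly, EtOH-exposed 4, 5, 6 and 14 lay at -11.7, -12.7, -12.4 and -9.65 points from the control-like mean. The control-like samples lay at -3.42 to 2.66 points, each against the other 8, the Ctrl samples at -0.642 to 1.99 and the intermediate ones at -7.59 to -4.92. The low samples therefore did not overlap with any other group, and the Ctrl samples lay within the control-like range. The difference was negative at 11188 of these tiles (92.2%).

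The size of the difference followed the level in Ctrl. It was -5.62 points at tiles of 20 to 30%, -11.9 at 40 to 50%, -14.6 at 60 to 70%, -7.58 at 80 to 90% and -2.27 at 95 to 100%. Expressed as the odds of methylation, which do not shrink towards the ends of the scale, the median log2 shift was -0.48 at 20 to 30%, -0.82 at 60 to 70% and -0.40 at 95 to 100%. The 4 samples differed in shape: EtOH-exposed 14 had the greatest difference of the 4 at 10 to 20% (-3.30 points) and the smallest at 70 to 80% (-9.13, against -12.3 to -13.8 in the other 3). At 69305 tiles under 5% in Ctrl, EtOH-exposed 4, 5 and 6 lay 1.81, 1.71 and 1.64 points above the control-like mean, and EtOH-exposed 14 lay at -0.511, within the control-like range of -0.583 to 0.417.

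**Figure D1:**
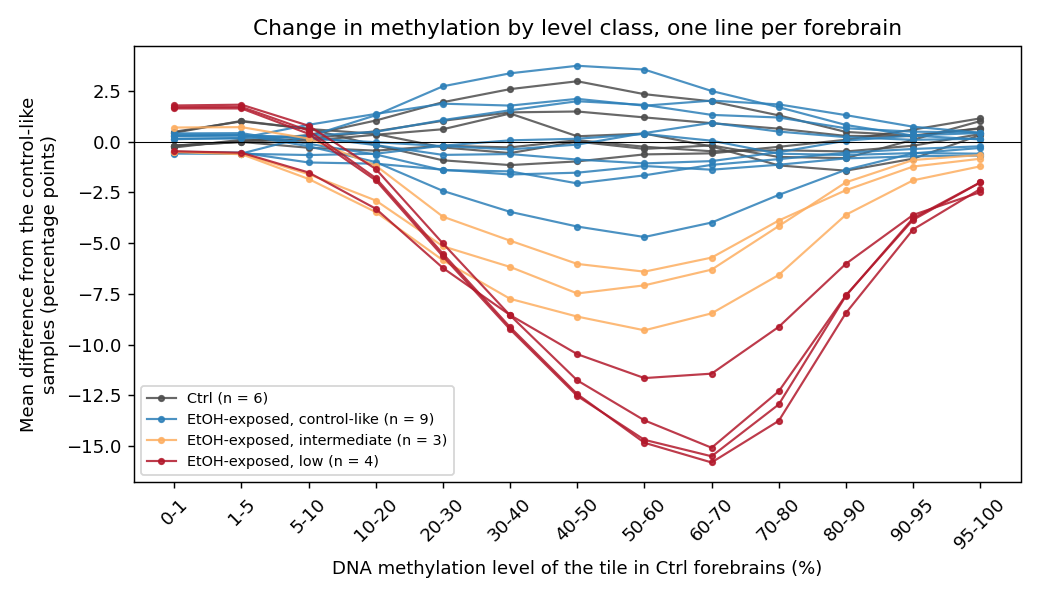
Mean difference in DNA methylation level from the control-like samples (vertical axis, percentage points) by the level of the tile in Ctrl forebrains (horizontal axis, classes in percent), with one line per forebrain, coloured by subset. The 4 low samples reach their lowest values between 50 and 70%, the intermediate samples lie between the low and the control-like ones from 40 to 95%, and EtOH-exposed 4, 5 and 6 lie above 0 at unmethylated tiles.

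A tile was called lowered when every low sample lay under every control-like sample and the means differed by at least 20 points, and raised for the same upward. Of the 125224 tiles 2509 were lowered (2.0%) and 6 were raised (0.00479%). Without a minimum size, the low samples lay under all control-like samples at 8332 tiles (6.65%) and above all of them at 337 (0.269%). Since the samples were selected on their level, these shares describe the choice. The lowered tiles fell on 2309 MspI fragments and had a median level of 74.2% in Ctrl, and 895 of them had 80% or more. Over these tiles the mean level was 43.1% in the low, 71.2% in the control-like and 72.2% in the Ctrl samples. The intermediate samples took no part in the definition, but they were set apart by their level in the same data. Their values therefore describe that choice as well. They had a mean of 60.8%. EtOH-exposed 2, 8 and 9 lay under the control-like range at 59.6, 46.3 and 36.3% of the lowered tiles they measured. In the Ctrl samples this share was 3.42 to 13%. Without EtOH-exposed 14 there were 2979 lowered and 17 raised tiles, so this sample limits the count of raised tiles.

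The tiles at which the 4 low forebrains were lower were compared as a description, since all 4 were chosen for low methylation and share a reference mean. Across tiles at 20 to 80%, the deviations from the control-like mean correlated at 0.67 to 0.71 between EtOH-exposed 4, 5 and 6 and at 0.50 to 0.55 between these and EtOH-exposed 14 (Pearson's r over 11099 to 11833 tiles, without a p). Of the tiles at which either sample of a pair was 20 points lower, both were at 43.7 to 49.8% in pairs of EtOH-exposed 4, 5 and 6 and at 29.7 to 32.1% in pairs with EtOH-exposed 14. Of 1775 tiles at which EtOH-exposed 4, 5 and 6 all lay under the control-like range with a mean 20 points lower, EtOH-exposed 14 also lay under that range at 1381. Of 1328 tiles at which EtOH-exposed 14 was 20 points lower and under the range, the other 3 were all under it at 902, and none of them at 91. EtOH-exposed 14 also differed from the other 3 in belonging to the set of libraries with less of chromosome Y.

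The difference was found in every kind of genomic feature, with small steps between them. At tiles of 20 to 80% it was -12.4 points in introns (SD 1.49, n = 4), -11.9 in intergenic DNA (SD 1.37), -10.6 in coding exons (SD 1.35) and -9.52 in promoters (SD 0.979). Weighted to the same levels, the values were -12.3, -11.7, -10.9 and -10.6 points. Lowered tiles made up 14.8% of intron, 14% of intergenic, 9.65% of coding exon and 8.70% of promoter tiles at these levels, against 13.3% of all. Counted over all levels, introns and intergenic DNA held 1017 and 1046 of the 2509 lowered tiles and promoters 76, although promoters held 31998 of the tiles, since most promoter tiles were unmethylated. By CpG density, the difference was -13.1 points at tiles with under 10 CpGs in 1 kb, -8.61 at 40 to 59 CpGs and -9.83 at 60 or more, and weighted to the same levels -12.8, -9.40 and -11.4. The mean difference lay between -13.1 and -10.8 points on each of chromosomes 1 to 19.

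The difference was smaller at tiles on short MspI fragments and at tiles inside repeats. On fragments of 40 to 59 bp the difference at 20 to 80% was -5.07 points (SD 1.04, 561 tiles) and on fragments of 60 to 79 bp -9.80 (SD 0.754, 1585 tiles), whereas it was -12.2 at 80 to 99 bp and between -12.6 and -12.01 in the longer classes. Of the tiles on the shortest fragments 40.3% differed by less than 5 points, against 22.6% of all tiles at 20 to 80%. In tiles wholly covered by masked repeats the difference was -4.64 points (SD 0.583, 413 tiles), against -12.1 in tiles without masked bases, with a mean Ctrl level of 69.6% against 56.1%; weighted to the same levels the values were -5.09 and -12.2. In repeats the intermediate EtOH-exposed 2 and 9, at -5.90 and -5.36 points, lay under all 4 low samples. Each property was seen without the other. Repeat tiles on fragments of 80 to 300 bp lay at -6.14 points (315 tiles), unmasked tiles on fragments of 40 to 59 bp at -5.96 (388 tiles), and repeat tiles on these short fragments at 2.79 (47 tiles). Reads of repeat copies can be placed on more than one copy, and the part of such reads in these values was not tested.

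**Figure D2:**
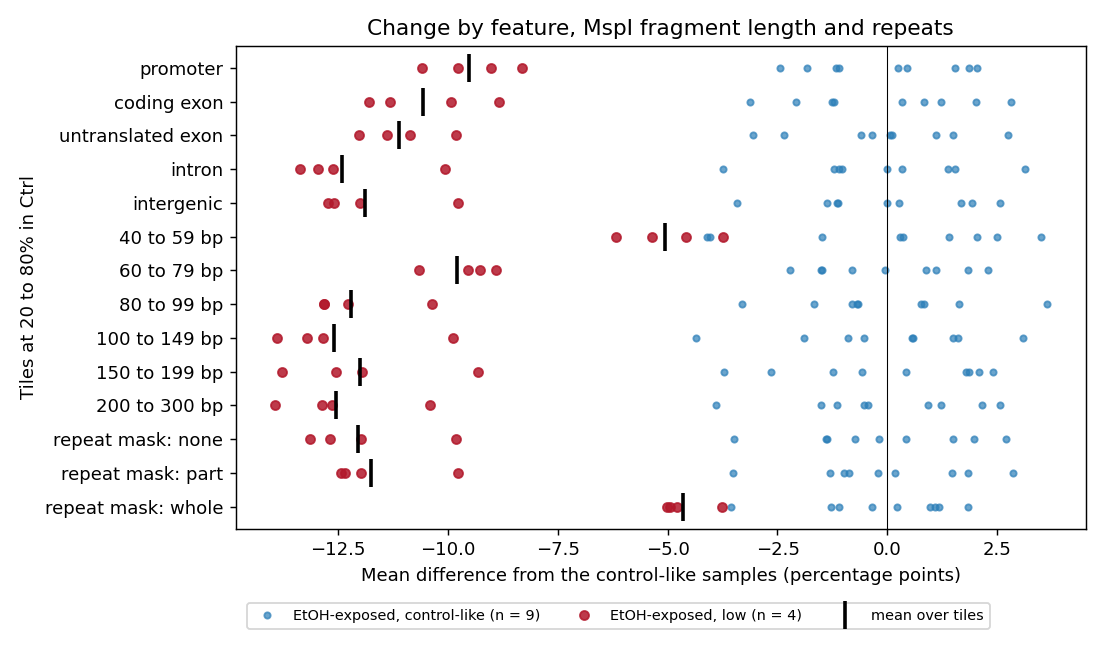
Mean difference from the control-like samples at tiles of 20 to 80% in Ctrl (horizontal axis, percentage points) by genomic feature, MspI fragment length and repeat masking (vertical axis), with a point per forebrain and a bar for the mean over tiles. The low samples lie below all control-like ones in every row except fragments of 40 to 59 bp, where the subsets overlap and the mean is -5.07 points.

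Imprinted loci had the greatest mean difference of the gene lists examined. The 69 tiles within 5 kb of a start site of an imprinted locus and at 30 to 70% in Ctrl came from 17 of 25 listed loci. Their mean level was 19.3% in the low and 46.0% in the control-like samples. The difference was -27.1, -26.7, -27.8 and -25.5 points in EtOH-exposed 4, 5, 6 and 14, a mean of -26.8 (SD 0.931), whereas all tiles, weighted to the same levels, had a mean difference of -12.4. Of the 69 tiles 41 were lowered (59.4%), against 15% of all 6752 tiles at these levels, and 0 were raised. Cdkn1c, an imprinted gene with a raised tile described further on, was not among the listed loci. The control-like samples ranged from -10.6 to 10.2 points at these tiles, the Ctrl samples from -7.27 to 8.36, and EtOH-exposed 2, 8 and 9 lay at -18.4, -3.98 and -13.6.

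Peg10, a paternally expressed gene derived from a retrotransposon, had the lowest levels. At its tile with the greatest difference (chr6:4747401-4747500), in the shared promoter with Sgce, EtOH-exposed 4, 5, 6 and 14 had 4.57, 2.93, 2.48 and 5.69%. The 9 control-like samples ranged from 20.6 to 82.4% with a median of 53.9%, and 5 Ctrl samples from 44.3 to 62.6%. The low samples were covered by 685 to 2473 calls there (reads summed over the CpGs of the tile). The spread among the control-like samples (SD 19.7) was far wider than among the low ones (SD 1.48). At the Grb10 tile shown above, the low samples had 18.2, 14.3, 13.7 and 27%, the control-like samples 36.7 to 76.0% with a median of 58.1%, and the Ctrl samples 15 to 62.7%, so that the lowest Ctrl sample lay inside the low range.

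Over their tiles, all 4 low samples lay under all control-like samples at 11 of the 17 loci: Peg10 (-48.0 points over 2 tiles), the nucleosome assembly gene Nap1l5 (-35.5, 3 tiles), the noncoding transcript Airn (-34.3, 2 tiles), Mest (-32.9, 2 tiles), Grb10 (-32.4, 8 tiles), the G protein subunit gene Gnas (-29.2, 21 tiles), Nnat (-28.9, 6 tiles), Mcts2 (-28.8, 4 tiles), Snrpn (-25.3, 2 tiles), Kcnq1ot1 (-22.4, 1 tile) and H19 (-15.7, 1 tile). The same held for 49.2% of the 1050 genes with at least 3 tiles at 20 to 80%. The loci used another range of levels and only tiles near a start site, and some had 1 or 2 tiles, so these shares are not strictly comparable. The subsets overlapped at Meg3, Inpp5f, Peg3, Zrsr1, Peg13 and Plagl1. Plagl1, a zinc finger gene, showed the smallest difference (-6.27 points over 4 tiles), and its tiles were uneven, from -22.4 to 14.3 points. H19 and Meg3, whose control regions are methylated on the paternal copy, had values of -15.7 and -27.3 points, each from a single tile.

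**Figure D3:**
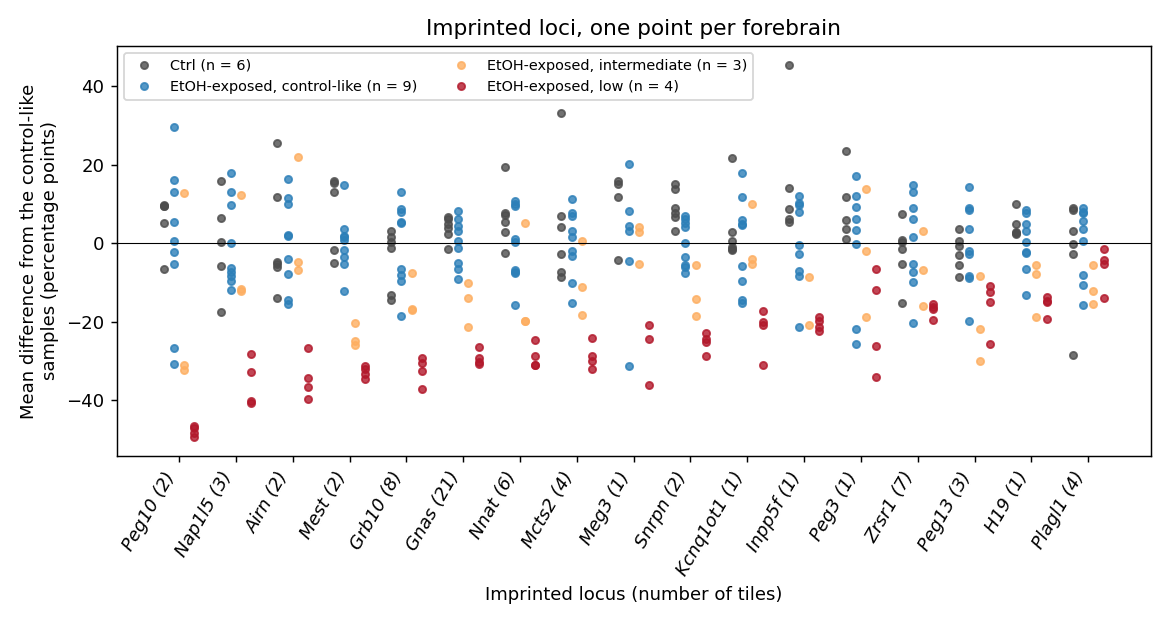
Mean difference from the control-like samples (vertical axis, percentage points) over the tiles of each imprinted locus (horizontal axis, number of tiles in brackets), with one point per forebrain, coloured by subset. The low samples lie between -46.7 and -49.5 points at Peg10 and between -1.47 and -14 at Plagl1.

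Among the 1050 genes with at least 3 tiles at 20 to 80%, the mean difference was negative in 1032, with a median of -10.8 points and the middle 80% of genes between -19.5 and -4.02. The 10 genes with the greatest decreases lay between -43.1 and -32.4 points. In each of them all low samples with a value lay under all such control-like samples, with 3 low and 6 control-like samples measured in Gulo. This was also true of 49.2% of the 1050 genes. Both the genes and the samples were picked by their levels, so the lack of overlap describes the choice. They were 1700028I16Rik (-43.1), Tedc1, a centriole component gene (-37.9), Herc3 and Nap1l5, which share the same 3 tiles because Nap1l5 lies in an intron of Herc3 (-35.5), Napepld, a phospholipase of N-acylethanolamine synthesis (-35.4), Rfx8 (-35.4), Gulo, the enzyme of the last step of vitamin C synthesis (-34.5), the protocadherin Dchs1 (-33.4), the AP-1 factor Fosl2 (-33.2) and Grb10 (-32.4). At the Rfx8 tile shown above, the low samples had 36.3, 25.3, 16.2 and 43.5% and the control-like samples 71 to 87.1% with a median of 79.4%. At the tile with the greatest difference of Dchs1 the low samples had 13.2 to 25.1% and the control-like samples 49.0 to 72.8% with a median of 57.4%. These sets of values did not overlap, and the Ctrl samples at Dchs1 (50.3 to 74.2%) lay with the control-like ones.

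Few genes went the other way. The 5 greatest mean increases were 7.01 points in Gipc3, 5.25 in the junctophilin gene Jph2, 5.16 in the glycolytic gene Aldoa, 4.34 in Arhgef28 and 3.58 in Gpr158, each over 3 tiles, and in all 5 the low and control-like samples overlapped. At the Gpr158 tile shown above, which is wholly masked as a repeat, the low samples had 82.0, 83.8, 87.1 and 87.7%, within the control-like range of 72.0 to 89.0%, and the Ctrl samples had 48.1 to 83.3%.

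The 5 single tiles with the greatest decreases were each measured in 3 low samples. The greatest was a tile in an intron of Ttc23 (chr7:67714601-67714700) with 8.33, 16.1 and 10.9% in EtOH-exposed 4, 5 and 6 and no value in EtOH-exposed 14, against 72.3 to 86.1% in 7 control-like samples, a difference of -68.7 points. It was covered by 93 to 132 calls, summed over its CpGs, in the low and by 26 to 158 in the control-like samples. The next lay in an intron of Tanc1, a synaptic scaffold gene (chr2:59706901-59707000). It had 0, 27.3 and 22.5% in EtOH-exposed 4, 6 and 14 from 51, 44 and 71 calls summed over its CpGs, so from fewer reads. The control-like samples had 75.0 to 90.8% from 60 to 1433 calls, and EtOH-exposed 5 had no value. The others among the 5 greatest lay in an intron of Cyb5a (-66.0 points), in intergenic DNA nearest to Kdm4c (-65.4) and in intergenic DNA nearest to Piezo2 (-65.3).

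The 5 raised tiles with the greatest increases were the intergenic tile on chromosome 4 shown above (34.5 points), a repeat in an intron of Hao1 (28.6), the Maml2 tile shown above (24.3), an intergenic tile nearest to Mir678 (23.9) and a tile in an intron of Cdkn1c, an imprinted inhibitor of the cell cycle (20.8). At the Maml2 tile the low samples had 88.3, 89.7, 92.4 and 91.4% and the control-like samples 61.8 to 74.5%, with 3 Ctrl samples at 64.7 to 65.5%. Of the 5 tiles 3 lay on MspI fragments of 41 to 51 bp. Tandem copies, defined as a period of 20 to 50 bp at which at least 90% of bases were equal, made up 2 of the 6 raised tiles, 0 of the 2509 lowered ones and 100 of all 125224 (0.0799%). At 9 tandem tiles of 20 to 80% the mean level was 64.7% in the low and 58.4% in the control-like samples. These include both raised tandem tiles, and over the other 7 it was 58.1% and 58.4%, a difference of -0.275 points. At the Cdkn1c tile (chr7:143459701-143459800) the values were 65.4, 58.8, 55.7 and 48.2% in the low samples and 24.8 to 47.1% in the control-like ones.

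Promoters of germline genes were highly methylated in both subsets. These genes are silenced in somatic cells by promoter methylation set after implantation, and 15 of 39 listed ones had a measured promoter. Over 32 promoter tiles at 20% or more in 12 of them, the mean level was 80.4% in the low and 85.1% in the control-like samples, a difference of -4.74 points (SD 1.07), against -6.33 points for all tiles at the same levels, and 0 were lowered. Lowered tiles made up 6.68% of all 1123 promoter tiles at 20% or more and 5.58% of all tiles at 80 to 90%, so a count of 0 in 32 is near the background. The greatest differences were in the RNA helicase gene Ddx4 (-14.4 points), Piwil2 (-6.66) and Mael (-6.06), and the smallest in Tuba3b (-0.418). Pluripotency genes had only 5 such tiles, in Zfp42 (-16.7 points), Dppa2 (-9.57), Pou5f1 (-3.65) and Tcl1 (0.798), and 0 of them were lowered. Of the 1123 promoter tiles 75 were lowered.

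Developmental regulators with CpG-dense promoters had little methylation to lose. The promoters of 23 of 34 forebrain transcription factors (80 tiles) had a mean level of 1.14% in Ctrl, 0.942% in the control-like and 2.12% in the low samples. The values were 1.68, 1.49 and 2.62% for 27 of 39 Hox genes and 1.67, 1.47 and 2.57% for 15 of 20 genes of the DNA methylation machinery. No promoter tile of these lists reached 20% in Ctrl. All tiles at the same levels differed by 1.15, 1.11 and 1.03 points, so these rises were near the background. Over all tiles under 5%, EtOH-exposed 14 had no such rise (-0.511 points). Markers of other cell types that a dissection may hold gave the same picture: mesenchyme and neural crest (9 of 15 promoters measured) had 1.28, 1.04 and 2.34% and trophoblast (6 of 14) 1.36, 1.14 and 2.27%. Blood markers had 5 of 16 promoters measured, with 10.4, 8.54 and 8.76%, and endothelial markers 6 of 14, with 13.2, 12.8 and 11.9%. With the blood marker Vav1 (-4.18 points) and the endothelial marker Tie1 (-10) as the only genes with tiles at 20% or more, the cell makeup of the low samples was not tested. These promoters were unmethylated in most lists, so the tissue label cannot be checked by them. Genes that the study chose on these samples (12 of 17 with tiles at 20 to 80%) are no independent evidence of direction. Their 44 tiles had a mean difference of -18.1 points (SD 2.24), against -11.7 for all tiles at the same levels, and 13 of the 44 were lowered, where 13.3% of all tiles at 20 to 80% were. Epha7 lay at -32.5, the cytokine gene Il6 at -31.0, the channel gene Hcn4 at -27.6 and Lrch1 at -7.75 points, each over 1 tile. The low and control-like samples overlapped at Epha7, which was measured in 3 low samples, at Hcn4 and at Lrch1. They did not overlap at Il6.

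Relative to the coverage of unmethylated tiles, the libraries of the low forebrains held fewer methylated reads at methylated tiles. Over whole libraries, 15.3, 18.6, 15.7 and 9.06% of calls were methylated in EtOH-exposed 4, 5, 6 and 14. In the control-like samples this share was 13.6 to 39.4%. After scaling to the coverage of tiles under 5% methylated, tiles at 90 to 95% were covered by methylated reads at a log2 ratio to Ctrl of -2.27, -2.24, -2.43 and -2.11 in EtOH-exposed 4, 5, 6 and 14, a mean of -2.26 (SD 0.13) or 0.209 of the Ctrl coverage. The control-like samples lay at -1.16 to 0.13 (mean -0.30, SD 0.42). Unmethylated reads at the same tiles were also fewer, at -1.59 (SD 0.13) against -0.33 (SD 0.34). At tiles of 30 to 70% methylated reads lay at -1.54 (SD 0.13) in the low and -0.33 (SD 0.33) in the control-like samples, and unmethylated reads at -0.66 (SD 0.22) and -0.26 (SD 0.24). At tiles of 30 to 70% and of 90 to 95%, both kinds of reads were thus fewer on average in the low than in the control-like samples after this scaling.

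At imprinted tiles the 2 kinds of reads parted further. Over the 27 imprinted tiles measured in all 22 samples, methylated reads lay at -2.16 (SD 0.17) in the low samples, beside -2.26 at tiles of 90 to 95%. Unmethylated reads lay at -0.23 (SD 0.13), beside -0.13 (SD 0.02) at tiles under 5%. In the control-like samples both lay near -0.4 (-0.41, SD 0.36, and -0.39, SD 0.31). At tiles of 90% or more, the coverage of methylated reads in the low samples lay between -2.44 (fragments of 60 to 79 bp) and -2.24 (80 to 99 bp) in every fragment class. On fragments of 80 to 99 bp the control-like samples lay at -0.31 there. Coverage also differed by fragment length at tiles under 5%. All reads of the low samples lay there at -0.69 (60 to 79 bp) and -0.18 (80 to 99 bp), and those of the control-like samples at -0.91 and -0.098. On fragments of 40 to 59 bp, methylated reads at tiles of 90% or more lay at -2.26 (SD 0.09), against -0.68 in the control-like samples. All reads at tiles under 5% on them lay at -0.48 and -0.68. At tiles of 30 to 70% on these short fragments, methylated reads lay at -1.08 (SD 0.30) in the low and -0.72 (SD 0.35) in the control-like samples, a smaller gap than on fragments of 80 to 99 bp, with -1.57 (SD 0.12) and -0.34 (SD 0.38). In tiles of 30 to 70% wholly covered by repeats (35 tiles), methylated reads lay at -2.36 in the low and -0.28 in the control-like samples and unmethylated reads at -1.48 and -0.34. In unmasked tiles the values were -1.48 and -0.32 for methylated and -0.64 and -0.26 for unmethylated reads. In the low samples both kinds of reads were thus fewer in repeats than in unmasked tiles. In the control-like samples methylated reads were not. Methylation lost from the tissue and methylated fragments lost from the libraries cannot be told apart by these values.

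**Figure D4:**
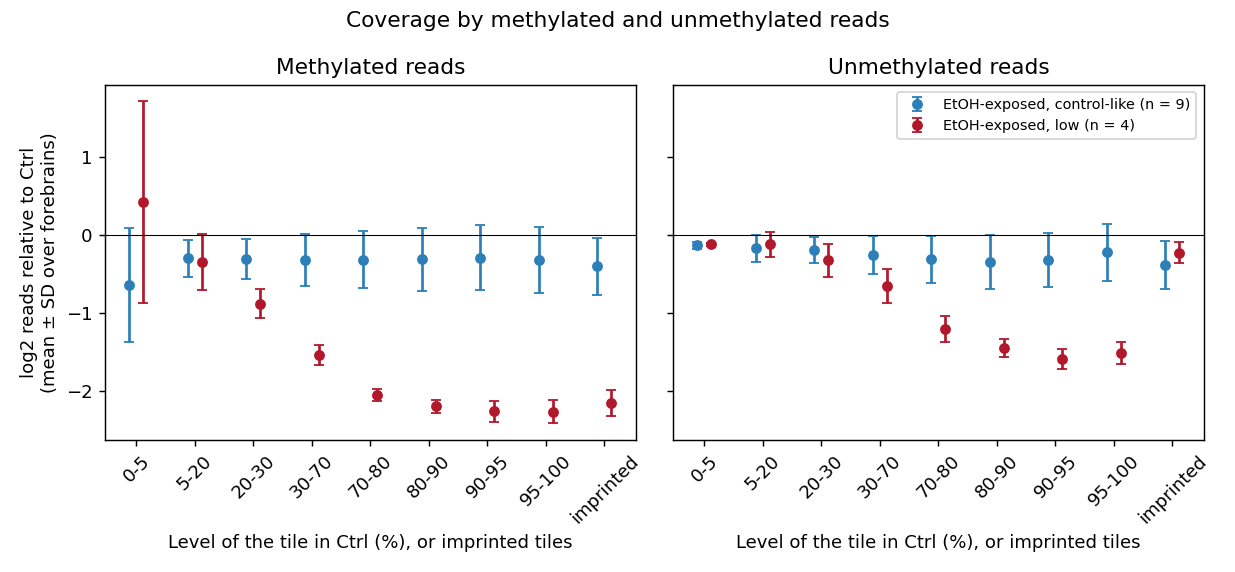
Coverage by methylated (left) and unmethylated (right) reads as log2 ratio to Ctrl (vertical axis, mean ± SD over forebrains) by level of the tile in Ctrl and at imprinted tiles (horizontal axis), for the 4 low and 9 control-like samples. Methylated reads of the low samples lie near -2.2 at tiles over 80% and at imprinted tiles, and their unmethylated reads lie at -0.23 at imprinted tiles.

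The coverage was tested on 6416 MspI fragments, each 40 to 300 bp long and read at least 5 times from either end by every library. Log2 coverage minus the mean of the Ctrl libraries (for a Ctrl sample, the other ones) was modelled linearly on length, GC content, number of CpGs and Ctrl methylation. The coefficient for methylation is the log2 coverage of a fully methylated against an unmethylated fragment of the same kind, relative to Ctrl. It was -2.52, -2.53, -2.88 and -2.01 in EtOH-exposed 4, 5, 6 and 14. The control-like samples ranged from -0.72 to 0.11 with a median of -0.28, so the subsets did not overlap. The difference of -2.19 had p = 0.0014 in an exact two-sided permutation test over 715 divisions of 13 samples, the smallest it can give (adjusted p = 0.00979 over 7 measures by Benjamini-Hochberg). With any one low sample left out, the same test gave adjusted p = 0.0159 to 0.0318. Each of these came from the smallest p that 220 divisions allow, so they add only that the subsets did not overlap. The intermediate EtOH-exposed 2, 8 and 9 had -1.32, -1.02 and -1.12, and the Ctrl samples -0.23 to 0.37. The intermediate samples, which lay between the subsets, were left out of the test by their level. Since the coverage comes from the same reads as the level, these p-values are not independent of the choice of samples. The coefficients for length, GC and number of CpGs did not pass the threshold (adjusted p = 0.957, 0.139 and 0.155, exact permutation test). With samples exchanged only within the sets of chromosome Y share, the difference in the methylation coefficient was -2.13 (p = 0.0125, the smallest that 80 divisions allow by exact permutation, adjusted p = 0.0875). It was -2.45 within the set with more of chromosome Y and -1.69 within the other.

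The low libraries were also the larger ones, with 134901319 to 216223892 calls against 89179413 to 151474531 (adjusted p = 0.00979, exact permutation test), and EtOH-exposed 14 as the smallest of the 4 lay within the control-like range. Within the sets of chromosome Y share the difference in calls did not pass the threshold (p = 0.0375, adjusted p = 0.131, exact permutation test). CpGs with at least 10 reads (948867 to 1478041 against 685160 to 1453031) and median reads per tile (434 to 661 against 275 to 568) had adjusted p = 0.0563 each by the same exact permutation test, and 0.0239 and 0.0212 without EtOH-exposed 14. EtOH-exposed 11, the control-like sample with the lowest coefficient (-0.72), also had the lowest level of its subset at these tiles (-3.42 points). EtOH-exposed 3 and Ctrl 2 had methylated reads at -1.16 and -1.02 at tiles of 90 to 95%, near the -1.26 of EtOH-exposed 2. At tiles of 20 to 80%, EtOH-exposed 3 and Ctrl 2 lay at -1.32 and -0.642 points, against -7.59 for EtOH-exposed 2. The coefficients of EtOH-exposed 3 and Ctrl 2 at equal length, GC and number of CpGs were -0.49 and 0.37.

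**Figure D5:**
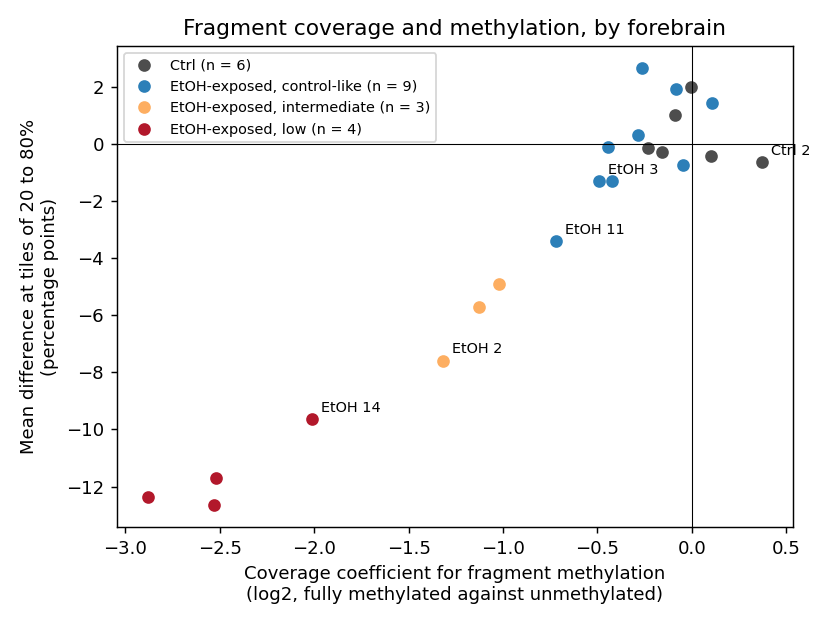
Coverage coefficient for the methylation of MspI fragments (horizontal axis, log2, fully methylated against unmethylated, relative to Ctrl) and mean difference from the control-like samples at tiles of 20 to 80% (vertical axis, percentage points), with one point per forebrain coloured by subset. The low samples lie at coefficients of -2.88 to -2.01, the intermediate samples at -1.32 to -1.02 and all others at -0.72 or above.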

How the data were processed

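RRBS libraries of 22 forebrains were analysed, with 1 library per sample as the labels give it. Per the submitters' processing notes, trimming used Trim Galore 0.3.3, and the aligner was BSMAP 2.90 with the mm10 build. The deposited counts are reads covering a cytosine of a CpG on a strand, without a minimum of coverage. The deposited percent values give how many of those reads carried a methylated or an unmethylated cytosine, to 1 decimal as the authors wrote them, and methylated reads were taken as the product of both. All 2809605 positions on chromosomes 1 to 19 lay at a CpG of GRCm38.

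A CpG was kept on a strand read at least 10 times, strands were added up and tile levels were weighted by coverage. A subset's level is the mean over its samples. PCR copies were not told apart from molecules, so depth covers counting error only, and p-values measure the spread between these samples. The reads of a tile were summed over its CpGs and strands, so a read over several CpGs counts several times. Counted in this way, the median over tiles of the lowest number of reads in the 13 samples was 105. Level classes came from the mean of at least 3 Ctrl samples, which left 815 tiles without a class. Odds used 0.5 added reads. Promoters held the 1000 bp before and 100 bp after a RefSeq start, and genes from 5 kb upstream to 1 kb past the end. Named were the 10 genes with the greatest decrease and the 5 with the greatest increase among those with at least 3 tiles at 20 to 80%, the 5 tiles of each direction, and from each list the 3 genes with the greatest decrease and the 1 nearest to 0. The Meg3, H19, Cdkn1c and other loci given beside these were chosen after their values were seen. The samples, members and lists were chosen with earlier results of these data known.

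For coverage measures the subsets were compared by exact two-sided permutation and Benjamini-Hochberg adjustment. Alternatives were other coverage minimums, 3 CpGs per tile, all samples measured, unweighted levels, forward strand CpGs, control-like or Ctrl references, CpGs of CCGG sites left out, other sizes of difference, other scalings and fragment filters, each low sample left out, and, chosen after the data were seen, EtOH-exposed 11 left out and comparison within sets of libraries split at the widest gap in the share of positions on chromosome Y. Scripts were tested on simulated data. Python 3.11.15, numpy 2.4.6, pandas 2.3.3 and matplotlib 3.10.9 were used.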

Additional observations from a re-analysis of the deposited data

Results flagged for a closer look

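A sample that stood apart from its own group, by a gap to its neighbour that was large against the group's range, was found in 15 of 160 groups of 4 to 9 samples, where chance gives about 1 in 20. EtOH-exposed 14 stood apart from the other low samples in the level at unmethylated tiles (0.307% against 2.41% or more), in the difference at tiles under 5% (-0.511 points against 1.64 or more) and in the coverage coefficient per CpG (-0.019 against -0.037 or less, log2). EtOH-exposed 5 had the lowest value of the low samples at tiles of 90% or more (-3.73 points against -3.29), and EtOH-exposed 16 had the most CpGs with at least 10 reads of the control-like samples (1453031 against 1006899).

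Ctrl 2 stood apart from the other Ctrl samples in the coverage coefficient per CpG (0.122 against 0.0122), in all reads at tiles of 30 to 70% (-0.77 against -0.18, log2), in unmethylated reads at these tiles (-0.73 against -0.17) and at tiles of 90 to 95% (-1.21 against -0.29), and in the differences at Mcts2 (33.3 points against 6.91) and Kcnq1ot1 (21.8 against 2.82). Ctrl 6 stood apart in unmethylated reads at imprinted tiles (0.49 against -0.0095) and in the differences at Peg10 (-6.58 points against 5.04) and Plagl1 (-28.6 against -2.85), and Ctrl 1 at Inpp5f (45.6 against 14). The Ctrl samples set the level classes but not the differences between low and control-like samples.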

How the results depend on the processing

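Of 303 values recomputed under the alternatives, 244 stayed, 51 moved, 4 changed sign, 2 no longer passed the threshold and 2 passed the threshold that they had missed. A difference stayed when it moved by less than the SD over the low samples, and a tested measure when it kept its side of the threshold. Counts of tiles were judged by their ratio to the main count. By this rule 3492 lowered tiles with 5 reads per CpG, against 2509, stayed. The difference at tiles of 20 to 80% moved when CpGs of CCGG sites were left out (-9.86 points) and within the set with less of chromosome Y (-9.58 points). No paired analysis was possible because the subsets are parts of the EtOH-exposed group and share no replicate number. Coverage limits the largest single decreases, each measured in 3 of the 4 low samples, and the causes of the changes below were not tested.

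The counts of lowered and raised tiles were 1503 lowered with 20 reads per CpG, 1063 and 3 with 3 CpGs per tile, 468 and 1 among tiles measured in all 22 samples, 1496 and 3 on the forward strand, 930 and 1 without CCGG sites, 6034 and 26 at 10 points, 793 and 1 at 30 points, and 2 raised with unweighted levels. Leaving out a sample gave 1947 to 2979 lowered and 5 to 17 raised tiles. The difference at tiles of 90 to 100% was -4.06 points with 5 reads, -2.88 with 20 reads, -2.84 with 3 CpGs and -3.90 against Ctrl, and -3.58 to -3.08 with a sample left out. At tiles of 20 to 40% it was -6.68 with 3 CpGs, -6.85 in all 22 samples, -7.52 unweighted, -7.55 with classes from the control-like samples and -7.91 against Ctrl, and -7.52 to -7.06 with a sample left out. In repeats it was -3.73 with 3 CpGs, -6.82 in all 22 samples and -3.96 unweighted, and on fragments of 40 to 59 bp -6.31 in all 22 samples. At imprinted tiles it was -25.3 with 5 reads and also unweighted, -29.8 against Ctrl, and -27.8 to -26.4 with a sample left out.

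Without CCGG sites the differences were -6.16 points at 20 to 40%, -11.3 at 40 to 60%, -10.9 at 60 to 80%, -5.72 at 80 to 90%, -2.50 at 90 to 100%, -7.92 in promoters, -10.4 in introns, -10.05 in intergenic DNA and -5.61 in repeats, with a log2 odds shift of -0.59. The low minus control-like coverage at imprinted tiles was -1.75 for methylated and 0.16 for unmethylated reads (log2), the latter opposite in sign to tiles of 30 to 70%. The difference in the length coefficient ranged from -0.44 to 0.20 with a sample left out and changed sign without EtOH-exposed 6 (0.18) and EtOH-exposed 14 (0.20). Those in CpGs with at least 10 reads and in median reads per tile ranged from 265617 to 442008 and from 112 to 188 and passed the threshold only without EtOH-exposed 14 (442008 and 188). Leaving out EtOH-exposed 11, the lowest control-like sample, was chosen after seeing the data and gave the ends of these ranges at tiles of 90 to 100% (-3.58), at tiles of 20 to 40% (-7.52) and at imprinted tiles (-27.8). The low samples left out gave -3.24 to -3.08, -7.32 to -7.06 and -27.2 to -26.4 there. The comparison within sets of chromosome Y share was also chosen after seeing the data. It gave -9.58 points at tiles of 20 to 80% and -24.2 at imprinted tiles in the set with less of chromosome Y, and -32.3 at imprinted tiles in the other. Over both sets by exact permutation, the differences in total calls (50725800, adjusted p = 0.131) and in the methylation coefficient (-2.13, adjusted p = 0.0875) no longer passed the threshold, and that in the length coefficient changed sign (0.71). The methylation coefficient had the smallest p that 80 divisions allow. With no other measure as low, its adjusted p could not pass, so this outcome was set by the number of divisions.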
